A study of Homo sapiens with 2 samples.

Results

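The genes described here encode the receptors that use the common gamma chain, together with the cytokine IL15. The 9 members were IL2RA, IL2RB, IL2RG, IL4R, IL7R, IL9R, IL15RA, IL21R and IL15, among 19775 genes with a probe set of their own. The receptor genes form a family by annotation, whereas IL15, the only ligand among the members, was included with its reading in these data already known. All 9 had such a probe set, 16 in total. Expression had been measured in SU-DHL-1, an established anaplastic large cell lymphoma (ALCL) line that carries the NPM1-ALK fusion, with Affymetrix HG-U133 Plus 2.0 arrays. One culture had received siHLX, directed at the NKL homeobox gene HLX, and the other siCTR, the AllStars negative control. Per the study's methods 80 pmol of siRNA was electroporated and cells were harvested after 20 h. There was 1 array per siRNA and 1 cell line, so no replicate error exists, no test between the siRNAs was possible, and each difference describes these 2 arrays only.

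Cytokines of this family act through receptors assembled from a few chains. IL2RG, the common gamma chain, joins a partner chain that gives each receptor its ligand, and IL2RB is shared by the receptors of IL2 and IL15. IL2RA and IL15RA are the alpha chains that capture these ligands with high affinity. The gamma chain carries the kinase JAK3, the partner chains carry JAK1, and the complex passes its signal to STAT5, STAT6 or STAT3, depending on the ligand. IL2RA, also known as CD25, is an activation marker of T-cells and commonly present on ALCL cells, and the study used it as an ILC3 marker. In ALCL cells with NPM1-ALK, silencing of IL2RG and of STAT5A has been described. The study looked for genes downstream of HLX in a lymphoma driven by JAK and STAT3.

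HLX, the targeted gene, was read first as a check of the labels and was lower with siHLX. It gave 7.70 with siHLX and 8.15 with siCTR on the log2 scale of RMA intensities, which makes -0.45, or 0.732-fold. Among the 3712 named probe sets whose mean was no more than 0.5 from that of HLX, called its neighbours in level, 59 were at least as far down. Over all probe sets, which do not stand for replicates, the arrays correlated with r = 0.989. All 10 markers of ALCL, among them TNFRSF8 (CD30), ALK, BATF3, IRF4, GZMB, PRF1 and TIA1, lay above 4.865 on both arrays, the median level of all probe sets. Of 9 T-cell markers 6, CD3D, CD3E, CD247, CD4, CD5 and CD7, also lay above it on both arrays, beside 58.7% of all genes. CD3G, CD2 and CD28 lay below it. Of these markers above the median, CD3E, CD247, CD4, CD7 and the ALCL marker MUC1 lay below 6.66. That level is the 95th percentile of genes of other tissues, described further on. Poly-A control transcripts, spiked in before labelling, were lower with siHLX on 23 of 24 probe sets, by a mean of -0.29 (SD 0.18). Scaled to equal poly-A controls, every difference below would be 0.29 higher, the difference of HLX would be -0.16 and the median over all genes 0.28 instead of -0.01. Differences are therefore relative to the bulk of genes. In this bulk RNA a loss of cells that express a gene and a loss of RNA per cell cannot be told apart.

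Promoter windows of IL2RA, IL2RG and IL15RA are given from the RefSeq table of build GRCh38.p14. They show a chain read far above background, the common chain that was not, and the only member window with a STAT motif. IL15RA has several windows in that table, of which 1 is printed. Each window runs 5′ to 3′ in the direction of the gene, from 250 bases before to 50 after the start site, and capitals mark motif matches on either strand.
IL2RA, chr10:6062318-6062617, minus strand: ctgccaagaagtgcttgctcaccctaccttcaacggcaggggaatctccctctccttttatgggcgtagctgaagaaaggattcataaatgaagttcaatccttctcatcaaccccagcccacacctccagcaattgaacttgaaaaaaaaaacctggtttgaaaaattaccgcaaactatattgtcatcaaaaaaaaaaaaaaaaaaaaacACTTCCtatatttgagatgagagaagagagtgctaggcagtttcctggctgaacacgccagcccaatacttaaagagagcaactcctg
IL2RG, chrX:71111528-71111827, minus strand: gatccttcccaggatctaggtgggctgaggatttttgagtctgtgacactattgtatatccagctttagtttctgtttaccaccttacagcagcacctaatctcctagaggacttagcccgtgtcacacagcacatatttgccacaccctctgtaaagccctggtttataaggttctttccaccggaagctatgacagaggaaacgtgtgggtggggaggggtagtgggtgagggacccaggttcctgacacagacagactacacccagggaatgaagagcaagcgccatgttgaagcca
IL15RA, chr10:5977997-5978296, minus strand: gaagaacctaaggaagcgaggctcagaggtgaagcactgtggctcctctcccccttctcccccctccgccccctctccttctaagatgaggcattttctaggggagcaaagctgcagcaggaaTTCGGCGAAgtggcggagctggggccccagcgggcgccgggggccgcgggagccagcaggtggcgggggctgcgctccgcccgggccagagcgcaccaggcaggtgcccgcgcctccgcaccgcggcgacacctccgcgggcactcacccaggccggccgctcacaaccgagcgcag

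The following motifs were searched on both strands: TTCNNNGAA, the palindrome bound by STAT factors, TAATTA, a core of homeodomain sites, and GGAAGT, a form of the ETS site. TTCNNNGAA was in 7.66% of 35093 promoter windows of this length, TAATTA in 4.84% and GGAAGT in 22.8%. The table matched 7 of the 9 members with 10 windows, and IL2RB and IL15 were the other two. The STAT motif was in 1 of the 10 member windows, the IL15RA window shown above, where it began at -127 from the start site. The other windows of IL15RA, at other start sites, lacked it. The homeodomain core was in 0 of the 10. GGAAGT was in 4 of the 10 windows, with 1 match in that of IL2RA, on the opposite strand (ACTTCC) at -38, and was not among the letters of the IL2RG window. The matches in the printed windows did not overlap another of these motifs. They are letters in a sequence and were not tested for binding here.

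A gene was called transcribed when its brightest probe set was no lower than 4.865 on both arrays, a threshold set at the median level of the probe sets that are not controls. This rule called 5 of the 9 members (55.6%), IL2RA, IL2RB, IL4R, IL15RA and IL9R, beside 58.7% of all genes. As a second reading of background, 59 probe sets of 34 genes that belong to other tissues, such as liver, eye and testis, had a median level of 4.02 and a 95th percentile of 6.66. Their 2 brightest probe sets both read the fibrinogen gene FGB, at 11.43 and 10.99, which lay above the threshold on both arrays. IL2RA, IL2RB, IL4R and IL15RA lay above this percentile and IL9R did not. Of the 59 probe sets of other tissues, 19 (32.2%) had a mean no lower than the threshold, so passing it alone does not set a gene apart from background. The brightness of a probe set depends on its sequence as well as on its transcript, so a level places each reading against background and gives no ranking of the genes.

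The chains that capture and share IL2 were read well above background. IL2RA, the alpha chain of the IL2 receptor, read 12.26 with siHLX and 12.20 with siCTR on its brighter probe set, a difference of 0.06. Its fainter probe set read 9.36 with siHLX and 9.53 with siCTR, a difference of -0.17. The directions of the probe sets were opposite, and with equal poly-A controls both lay above 0, at 0.35 and 0.12. IL2RB, the beta chain that IL2 and IL15 have in common, read 11.18 with siHLX and 11.16 with siCTR, a difference of 0.02. Of its 899 neighbours in level, 42.3% were at least as far up, so the reading of IL2RB stood in the middle of its neighbours. For both genes the arrays were nearly alike, and IL2RA, named by the study as an ILC3 marker, had no direction that its probe sets shared.

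IL4R and IL15RA were also read above background on both arrays. IL4R, which binds IL4 and signals through STAT6, read 9.33 with siHLX and 9.32 with siCTR, a difference of 0.01. IL15RA, which presents IL15 to cells that carry IL2RB, read 7.05 with siHLX and 7.07 with siCTR, a difference of -0.02, which turns to 0.27 with equal poly-A controls. Among their neighbours in level 47.1% were at least as far up as IL4R and 47.7% at least as far down as IL15RA. Thus, 5 member probe sets had a mean level of 7 or more, and their differences ran from -0.17 to 0.06. The SD of all named probe sets in that range was 0.18.

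IL2RG, the common gamma chain, was not read above background. Its only probe set gave 5.08 with siHLX and 4.20 with siCTR, with the siHLX array above the threshold of 4.865 and the siCTR array below it. Of the 59 probe sets of other tissues, 22 were at least as bright as its mean of 4.64. The difference was 0.88, or 1.84-fold, and 3.64% of its 7418 neighbours in level were at least as far up. A 2-fold or larger difference was found in 2.09% of these neighbours upward and in 2.06% downward. Hence the alpha and beta chains of the IL2 receptor were read far above background and the gamma chain that completes it was not. A single probe set at this level does not show that a transcript is absent, and the level of its protein was not measured here.

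**Figure D1:**
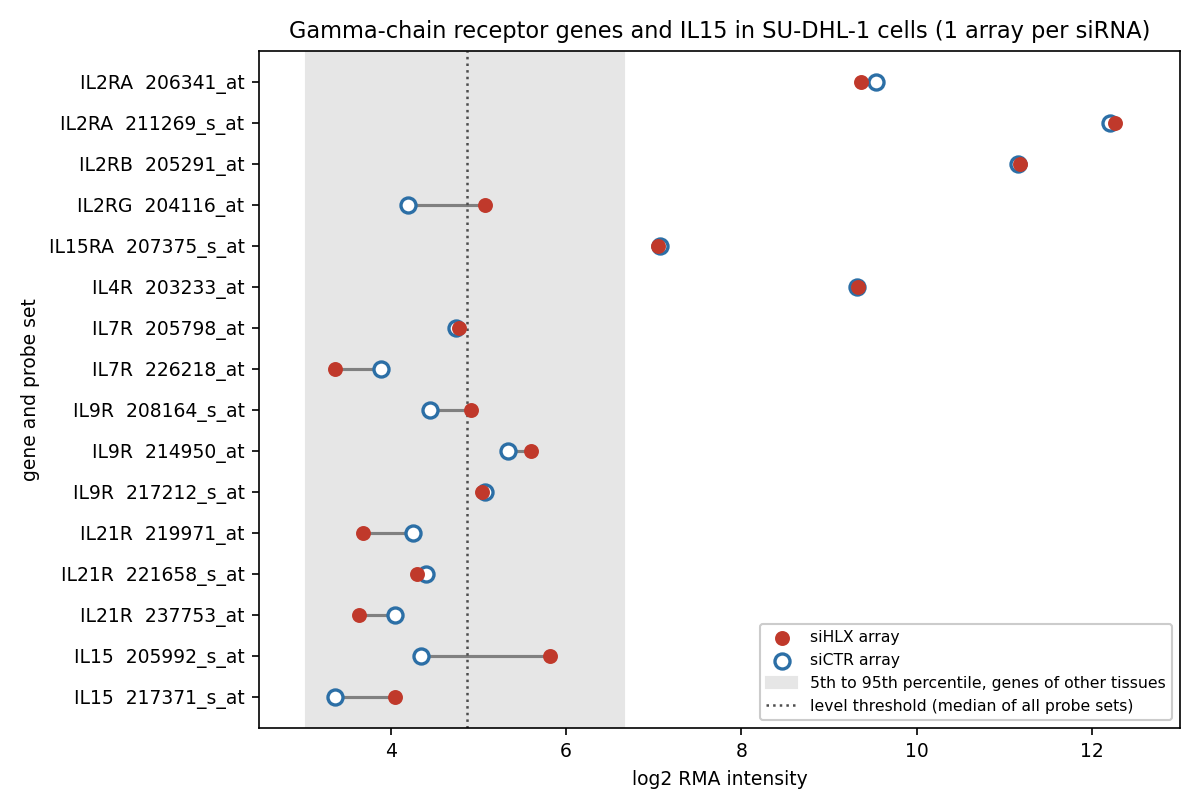
Log2 RMA intensity (x axis) of the 16 member probe sets (y axis), with filled points for the siHLX array and open points for the siCTR array, 1 array each; the dotted line is the threshold of 4.865 and the grey band the 5th to 95th percentile of 59 probe sets of genes of other tissues. IL2RA, IL2RB, IL4R and IL15RA lie to the right of the band with both points nearly on top of each other, whereas IL2RG, IL7R, IL9R, IL21R and IL15 lie inside it, where the points of IL15, IL2RG and IL21R are up to 1.47 apart and those of 1 probe set each of IL7R and IL9R nearly coincide.

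IL7R, IL9R and IL21R, the ligand-binding chains for IL7, IL9 and IL21, lay within the background range. IL7R, a receptor of lymphoid progenitors and memory T-cells, read 4.78 with siHLX and 4.74 with siCTR on its brighter probe set and 3.36 with siHLX and 3.89 with siCTR on the other. All 4 readings were below the threshold, and the differences, 0.04 and -0.53, had opposite signs. IL21R, which signals mainly through STAT3, read 4.30, 3.69 and 3.64 with siHLX, against 4.40, 4.25 and 4.05 with siCTR on the same 3 probe sets. Its differences were -0.10, -0.56 and -0.41, and the first of them lies above 0 with equal poly-A controls. Among their neighbours in level 44.0%, 11.5% and 18.6% were at least as far down. All 3 were lower on the siHLX array and below the threshold on both arrays, where a shift of this size was common.

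IL9R was called transcribed by the threshold but not by the reading of other tissues. Its probe sets read 5.60, 5.04 and 4.92 with siHLX, against 5.34, 5.08 and 4.45 with siCTR. The differences were 0.26, -0.04 and 0.47, with the second above 0 under equal poly-A controls. The 2 probe sets above the threshold lay in opposite directions. Of the 59 probe sets of other tissues, 10 were at least as bright as the brightest of IL9R. IL9R has 6 pseudogenes in the RefSeq table, and whether its probe sets read them was not tested, so the values of IL9R are uncertain. At the edge of the threshold, 1 probe set each of IL9R (mean 5.06) and IL15 (mean 5.085) lay just inside, and 1 each of IL7R (mean 4.76) and IL9R (mean 4.685) just outside.

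IL15, the ligand of the receptor formed by IL2RB, IL2RG and IL15RA, had the largest difference among the 16 member probe sets. It is made chiefly by myeloid and stromal cells and keeps NK-cells and memory T-cells alive. Its brighter probe set read 5.82 with siHLX and 4.35 with siCTR, above the threshold on the siHLX array only. The difference was 1.47, or 2.77-fold. The other probe set read 4.05 with siHLX and 3.36 with siCTR, a difference of 0.69 or 1.61-fold, with both arrays below the threshold. Both probe sets were thus higher on the siHLX array, by a mean of 1.08 (SD 0.55 between these 2 probe sets, which is no replicate error). Equal poly-A controls raise every difference, so that scaling could not have changed this direction.

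The level of IL15 was that of background. Its place among neighbours is a description only, since IL15 was known from earlier results to lie far up. Among the 6179 neighbours in level of its brighter probe set 5 (0.0809%) were at least as far up, IL15 included, and 391 of 9507 (4.11%) for the fainter one. Around the brighter one, 1.78% of the neighbours were 2-fold or more up and 1.84% as much down. Of the 59 probe sets of other tissues, 13 were at least as bright as its mean of 5.085. Among markers of myeloid cells 2 of 9 measured genes, CSF1R and ITGAM, had a mean above the threshold, beside 12135 of all 19775 genes. The brightest probe sets of these 9 genes summed to 219 with siHLX and 216 with siCTR on the linear scale, and CD14, LYZ, MPO, S100A8 and S100A9 lay below the threshold. ITGAM read 4.45 with siHLX and 5.51 with siCTR, and CSF1R 6.23 with siHLX and 5.79 with siCTR. Of 10 epithelial and stromal markers 2, COL1A1 and DCN, lay above the threshold, and the 10 summed to 365 with siHLX and 358 with siCTR, with the largest share from COL1A1 (7.43 with siHLX and 7.62 with siCTR). DCN read 5.54 with siHLX and 5.12 with siCTR on its brightest probe set, and its 7 probe sets had differences from -1.09 to 0.42. By the brightest probe set COL1A2 (1.02), LUM (0.45), DCN (0.42), KRT5 (0.41) and PDGFRB (0.04) were higher with siHLX. KRT14 (-0.79), CDH1 (-0.43), COL1A1 (-0.19), EPCAM (-0.13) and COL3A1 (-0.03) were lower. COL1A2, a stromal collagen gene with a mean below the threshold, read 5.27 with siHLX and 4.25 with siCTR. Its 3 probe sets had differences from 0.18 to 1.11. Both arrays hold RNA of an established lymphoma line, not of a tissue, and the source of the IL15 reading was not tested. The genes closest to IL15 in level over both arrays were CASP10 (5.71 with siHLX and 4.40 with siCTR), SH2D6 (5.74 with siHLX and 4.45 with siCTR) and EVI2A (5.94 with siHLX and 4.45 with siCTR), at Euclidean distances of 0.12, 0.13 and 0.16. Likeness over 2 arrays means only that these genes had a similar level and difference.

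As a family, the members had no common direction. With siHLX 9 of the 16 probe sets read higher and 7 lower, and the median difference was 0.015. Of the 8 above the threshold 5 were higher and 3 lower, with a median of 0.015, beside 47.5% higher and 49.9% lower and a median of 0 among all 22453 named probe sets above it. With equal poly-A controls the median was 0.30. At least 2-fold higher was 1 of the 8, that of IL15, beside 0.41% of all, and 0 of the 8 were at least 2-fold lower, beside 0.401%. Over all these probe sets 92 were that much higher and 90 lower, but 379 higher and 19 lower with equal poly-A controls. The probe set of IL15 was among the 8 only through its siHLX reading of 5.82, as its siCTR reading of 4.35 lay below the threshold, and its place in this count supports nothing. The 11 probe sets with a mean below 7 ran from -0.56 to 1.47, whereas the SD of all named probe sets with a mean from 4 to 6 was 0.46.

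**Figure D2:**
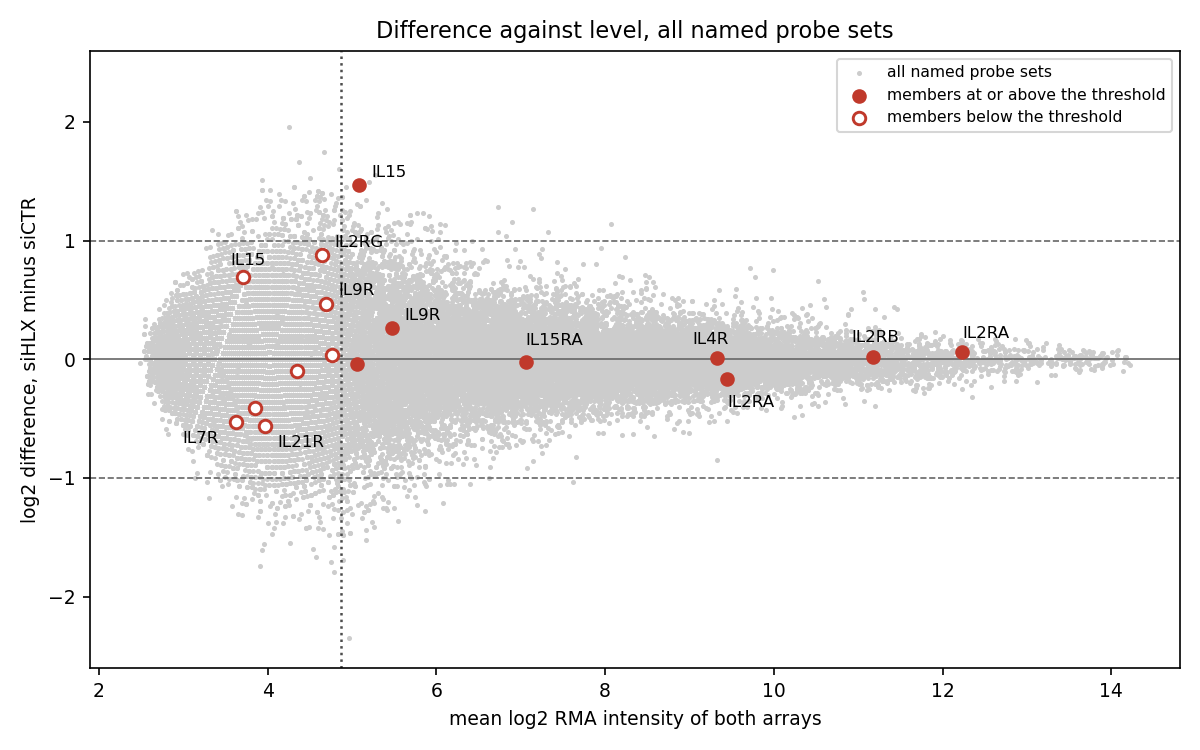
The y axis gives siHLX minus siCTR in log2 units and the x axis the level, as the average log2 RMA intensity over the arrays; grey points are all named probe sets, red points the members, filled at or above the level threshold (dotted line) and open below it, and dashed lines mark 2-fold. The members with a mean of 7 or more lie between -0.17 and 0.06, and IL15 at 1.47 is the only member beyond a dashed line.

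The other ligands and partner chains showed which further parts of these circuits the line transcribes. IL2, IL4, IL7 and IL21, the cytokines bound by the receptors above, were all below the threshold on both arrays. They read 3.49, 3.44, 2.76 and 4.15 with siHLX, against 2.92, 3.49, 2.88 and 3.84 with siCTR. IL9 had no probe set of its own. IL13RA1, which pairs with IL4R in a receptor for IL4 and IL13 that needs no gamma chain, read 8.33 with siHLX and 8.13 with siCTR. The differences of its 4 probe sets, all above the threshold, were 0.20, 0.21, -0.16 and -0.10 and gave no direction. IL13, its ligand, read 5.37 with siHLX and 4.45 with siCTR, a difference of 0.92. Its mean of 4.91 passed the threshold only through the siHLX array, and 2.89% of its neighbours in level were at least as far up. CRLF2, which joins IL7R in the TSLP receptor, read 4.25 on both arrays and TSLP 2.68 on both. IL13RA2, a decoy receptor for IL13, read 3.31 with siHLX and 3.0 with siCTR. Hence, of the chains outside the gamma-chain family only IL13RA1 was read above background on both arrays.

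The 6 measured kinases and STAT factors that gamma-chain receptors use were called transcribed by the threshold, beside 58.7% of all genes. Their brightest probe sets differed by -0.16 to 0.23. JAK3, the kinase bound to IL2RG, read 9.92 with siHLX and 10.08 with siCTR, and its 4 probe sets had differences of -0.16, -0.17, 0.90 and -0.05. The third of these lay at a mean level of 5.37. JAK1, carried by the partner chains, read 9.78 with siHLX and 9.88 with siCTR. Both JAK genes had a brightest probe set lower on the siHLX array and above 0 with equal poly-A controls, and at least 1 further probe set above the threshold with the opposite sign. STAT5B, an effector of IL2 and IL15, read 9.65 with siHLX and 9.42 with siCTR, a difference of 0.23, whereas STAT5A read 5.41 with siHLX and 5.37 with siCTR, within the range of other tissues. STAT6, the effector of IL4, read 8.31 with siHLX and 8.20 with siCTR, and STAT3, driven by NPM1-ALK and by IL21, 11.55 with siHLX and 11.49 with siCTR. STAT5B, STAT6 and STAT3 each had 1 further probe set above the threshold with the opposite sign, at -0.01, -0.12 and -0.02. Of these 6 genes 4 were higher and 2 lower, with a median of 0.05, beside 47.4% higher and 50.2% lower among 12135 genes.

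Adaptors, inhibitors and target genes were likewise spread around 0. By the brightest probe set 12135 of all 19775 genes had a mean above the threshold. Of 12 measured adaptors and kinases 9 lay above the threshold, with 4 higher, 5 lower and a median of -0.03. IRS1, an adaptor of the IL4 receptor, had 0.22 and the PI3K subunit gene PIK3R1 0.07, while the kinase gene AKT1 had -0.33 and the PI3K subunit gene PIK3CD -0.23. PIK3CD, at a mean level of 5.195, lay within the range of other tissues, and its other probe set, below the threshold, had 0.30. Of 8 measured inhibitors 6 lay above it, with 3 higher, 3 lower and a median of -0.01. SOCS3, which blocks JAK kinases, read 12.20 with siHLX and 12.24 with siCTR, SOCS1 9.95 with siHLX and 10.05 with siCTR, and CISH, a STAT5-induced inhibitor, 9.05 with siHLX and 9.23 with siCTR. The phosphatase genes PTPN2 and PTPN1 had differences of 0.10 and 0.02, the ubiquitin ligase gene CBL had 0.18, and SOCS2 and PTPN6 lay below the threshold with 0.05 and -0.14. Apart from the 0.30 of PIK3CD, these values come from the brightest probe sets. All 5 probe sets of CBL lay above the threshold and ran from -0.48 to 0.55. Those of PTPN1 ran from 0.02 to 1.34. The 1.34 came from a probe set below the threshold (mean 4.41), and the 2 above it had 0.02 and 0.04. IRS1, PIK3R1, SOCS1, CISH, PTPN2 and BCL2 had at least 1 further probe set above the threshold with the opposite sign. SH2B3, an adaptor that restrains JAK signalling, had no probe set of its own. Of 20 target genes of STAT5 and STAT6, IL2RA and IL4R included, 16 lay above the threshold, with 9 higher, 7 lower and a median of 0.015. FCER2, the low-affinity IgE receptor induced by IL4, had 0.54 at a mean level of 4.96, above the threshold on the siHLX array only, and BCL2 0.14, while the kinase gene PIM2 had -0.39 and CISH -0.18. BCL2 (mean 5.44) and PIM2 (mean 6.245) also lay within the range of other tissues. With equal poly-A controls the medians of the JAK and STAT genes, the adaptors, the inhibitors and the targets were 0.34, 0.26, 0.28 and 0.30, near the 0.28 of all genes. By the brightest probe set, 0 genes of these 4 lists above the threshold were at least 2-fold apart. Among all named probe sets above it, 0.41% were that much higher and 0.401% lower. With shares this small, a count of 0 says nothing particular about these lists.

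**Figure D3:**
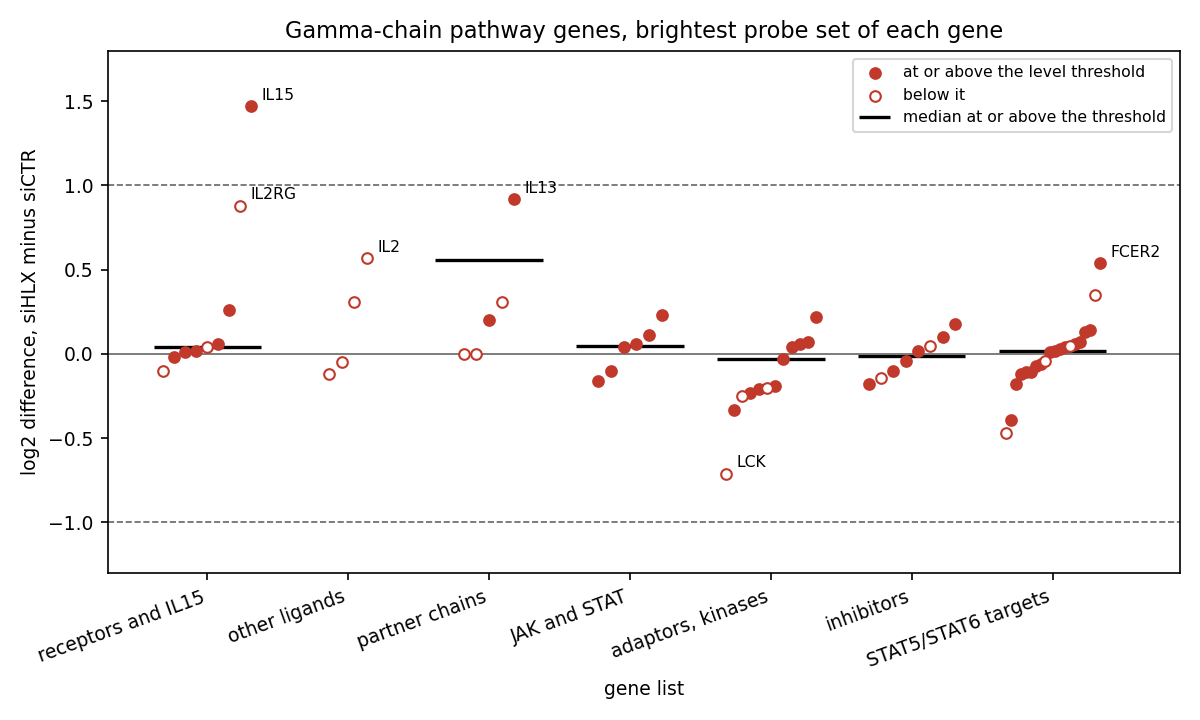
The y axis gives siHLX minus siCTR in log2 units for genes in 7 lists around the gamma chain (x axis), with 1 point per gene from its brightest probe set, filled at or above the level threshold and open below it; bars are medians of the filled points, and dashed lines mark 2-fold. Medians lie between -0.03 and 0.05 except for the partner chains, whose bar at 0.56 rests on 2 genes, IL13 and IL13RA1, of which IL13 passed the threshold only through its siHLX reading, and is 0.20 with no threshold or a stricter one; all would lie 0.29 higher with equal poly-A controls.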

How the data were processed

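The authors deposited 1 log2 intensity per probe set for each of 2 HG-U133 Plus 2.0 arrays, with 2 decimals. Per the study's methods, RMA background correction and quantile normalisation were carried out using limma and affy (versions not given in the sources used here). Quantile normalisation sets both arrays to the same overall brightness, so a change shared by most transcripts cannot be seen. The ratios to the sample mean described in the methods are not what these values hold, since both arrays had a median of 4.87. The platform annotation gave 1 gene to 41091 of 54613 non-control probe sets, several genes to 1801 and no name to 11721, and members came only from those with 1 gene. Entrez identifiers of 41037 were found in the RefSeq table of GRCh38.p14, and 0 symbols changed.

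Groups came from the treatment in the labels. Differences are siHLX minus siCTR. A gene stood for its brightest probe set by the mean of both arrays. With 1 array per group no test was run, and the number of arrays limits the precision. All members were named, all genes of lists of up to 9 (except for 1 that is not reported here), and the 2 highest and 2 lowest above the threshold of longer lists. The members and lists were chosen with earlier results of these data known. Alternatives were 4 scalings, other level thresholds, a 1.5-fold limit, the mean of all probe sets, and no _s_at or _x_at probe sets. The steps were tested on simulated data (Python 3.11.15, pandas 2.3.3, statsmodels 0.14.6).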

Additional observations from a re-analysis of the deposited data

How the results depend on the processing

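The members called transcribed were 5 with the threshold used here, 3 (IL2RA, IL2RB and IL4R) with the 75th percentile of 7.095, 4 (with IL15RA) with the 95th percentile of genes of other tissues, and 4 of 7 measured genes without _s_at or _x_at probe sets, which dropped IL15RA and kept IL9R. The count of member probe sets at least 2-fold higher was 1 (IL15) and became 0 with either stricter threshold and without _s_at or _x_at probe sets, since both probe sets of IL15 carry that suffix. It stayed 1 with 4 scalings, no threshold and a 1.5-fold limit, and the count of those at least 2-fold lower was 0 in all of these settings. Median centring, lowess and quantile normalisation moved the 16 differences by -0.01 to 0.03 and changed the sign of 0. Equal poly-A controls moved all by 0.29, changed the sign of 4 (the fainter probe set of IL2RA, that of IL15RA, and 1 each of IL9R and IL21R), and gave a median of 0.304 for the members and -0.161 for HLX. That scaling turned the split of all probe sets at least 2-fold apart from 92 higher and 90 lower to 379 higher and 19 lower. The difference of IL2RA was 0.06 by its brightest probe set, -0.06 by the mean and -0.17 without _s_at probe sets. The mean of all probe sets also changed the sign of IL7R, to -0.25. No paired analysis was possible because each siRNA had a single array. Signal over background limits the readings of IL2RG, IL7R, IL9R, IL21R and IL15.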
